A study of Arabidopsis thaliana with 12 samples.

Results

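In seedlings of Arabidopsis thaliana, 157 of 29420 counted loci had a higher transcript level in the brm-1 mutant than in wild type (WT) but not in the ref6-1 mutant. They were chosen by counts per 1000000 (CPM, the count of a locus scaled by the total of its library). A chosen gene had a mean of at least 2 CPM in brm-1 and at least 1.8 times the WT mean, its lowest brm-1 library lay above its highest WT library, and its ref6-1 mean was at most 125% of the WT mean. The levels in WT, brm-1 and ref6-1 are therefore given as a description of how the genes were picked, with no test. The libraries of the combined mutant, brm-1 ref6-1, had no part in the choice.

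BRM is the ATPase of a SWI/SNF complex, which uses ATP to move or evict nucleosomes and is needed both to activate and to repress genes in plant development. REF6 is a histone demethylase that removes the repressive methylation which Polycomb proteins place on histone H3, and it recognizes a short DNA word through zinc fingers. BRM and REF6 are known to share many target sites, and the study compared plants carrying a mutant allele of either or both.

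The 4 genotypes were WT, each single mutant and the combined mutant, with 3 libraries each from whole seedlings 14 days old, grown on MS medium under long days. No treatment was given. The alleles are named without further description, so what each lesion does to its gene is not stated in the sources used here. The labels speak both of biological replicates and of RNA pooled from them. The spread between libraries, and every p-value, may therefore be technical. Library totals ran from 10119148 to 11860892 counts.

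BRM itself was counted 3282, 2998 and 3067 times in WT, 3012, 2761 and 3003 times in ref6-1, and 43, 50 and 74 times in brm-1. The combined mutant held 60 and 35 BRM counts in replicates 1 and 2 but 438 in replicate 3, so this library stood apart from its group. The numbers of members called in the tested comparisons are given below with and without it. Most other results include it. REF6 averaged 88.5 CPM in WT and 80.9 CPM in ref6-1. Transcripts can come from a mutant allele too, which means that this level does not check the ref6-1 label. Photosynthesis genes, taken as markers of leaf tissue, summed to 1012 to 1116 CPM in WT, 1155 to 1290 CPM in brm-1, then 1119 to 1161 CPM in ref6-1 and 1149 to 1244 CPM in the combined mutant. In 10 of the 11 photosynthesis genes every brm-1 library was above every WT library, as in 4219 of all 21119 loci of at least 2 CPM in either genotype. In the combined mutant their median log2 difference was -0.05 from brm-1 and 0.06 from ref6-1, and their part in the results was not tested. Root markers summed to 224 to 306 CPM.

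The 157 genes had a median level of 3.15 CPM in WT, 7.38 CPM in brm-1, with 2.61 in ref6-1 and 5.41 CPM in the combined mutant. The ratio of the brm-1 mean to the WT mean ran from 1.8 to 65.8 with a median of 2.2, and the middle of the distribution, from the lower to the upper quartile, was 1.97 to 2.71. Most of the genes thus stood near the limit of the choice, and a few far above it. The genes just inside the limit of 1.8 were AT1G75900 at 1.80033 and AT1G61840 at 1.80328, and those just outside were AT3G27025 at 1.79996 and AT2G34530 at 1.79908. At the limit on ref6-1, AT1G76610 at 1.24232 and AT4G03380 at 1.2394 were inside, and AT3G56330 and MYB27, both at 1.26, were outside.

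The libraries of each genotype had similar medians over these genes. The median gene stood at 0.976, 1.0 and 0.997 times its WT mean in the 3 WT libraries, and at 2.29, 2.18 and 2.16 times in the brm-1 libraries. In ref6-1 the medians were 0.841, 0.867 and 0.843, and in the combined mutant 1.7, 1.6 and 1.62. Replicate 3 of the combined mutant, with its higher BRM count, was not set apart from replicates 1 and 2 by its median. Its lower quartile of 1.22 was above theirs (1.11 and 1.16), and its upper quartile of 2.12 was below theirs (2.28 and 2.16). What raised its BRM count was not tested, and a median over the genes cannot show it. The median coefficient of variation within a genotype was 20.8% in WT, 16.0% in brm-1, then 25.3% in ref6-1 and 18.5% in the combined mutant.

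**Figure D1:**
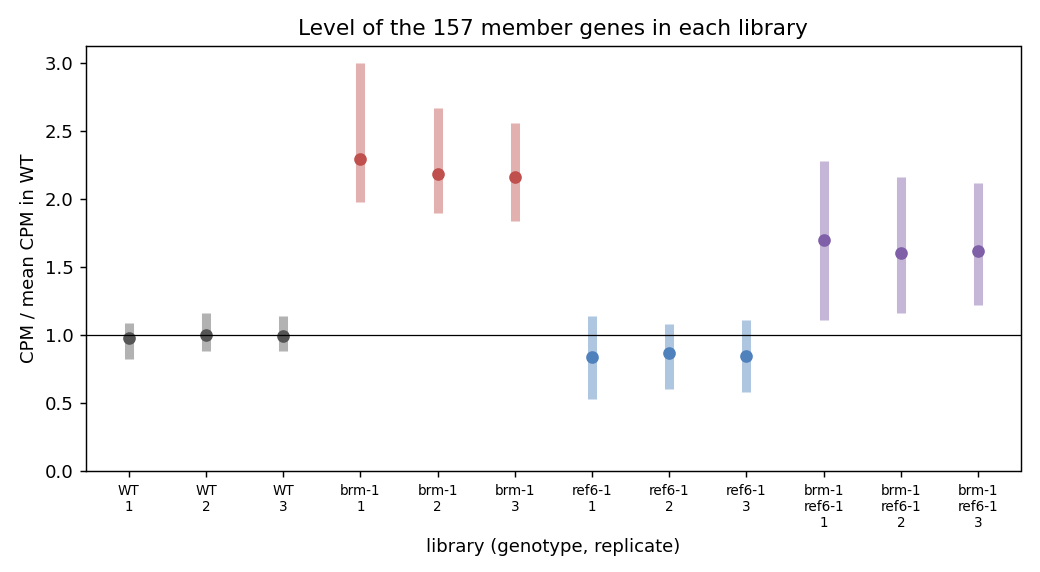
Level of the 157 genes in each of the 12 libraries, as the CPM of a gene divided by its mean CPM in WT (vertical axis). Points are medians over the genes and bars run from the lower to the upper quartile. The WT, brm-1 and ref6-1 values were used to choose the genes. The combined mutant libraries, which were not, have medians of 1.6 to 1.7.

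The first tested comparison asks how these genes differed when the ref6-1 allele was added to brm-1. With edgeR's quasi-likelihood test on all 12 libraries and Benjamini-Hochberg adjustment over 22076 genes, 31 of the 156 genes that passed the filter on low counts were lower in brm-1 ref6-1 than in brm-1 at an adjusted p under 0.05, where 3.27% of all genes tested were called lower. The member that did not pass was AT5G53230, a DUF295-domain gene with means of 0.441 CPM in WT, 2.03 CPM in brm-1, then 0.0608 in ref6-1 and 0.647 CPM in the combined mutant. No member was called higher with edgeR (3 at an unadjusted p under 0.05) or with DESeq2, beside 1.12% of all genes tested. The median log2 difference was -0.41 over the members and 0.006 over all genes tested, and 129 members lay below 0. Because the brm-1 libraries were chosen for being high, part of this lower level is set by the choice itself. The count of 31 was 15 without replicate 2 of the combined mutant, 29 without its replicate 3, 21 to 26 without any of the other libraries, and 35 with DESeq2. In whole seedlings, fewer cells of a type and less RNA per cell cannot be told apart, here and in all results that follow.

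The second tested comparison asks how they differed when the brm-1 allele was added to ref6-1, and it sets neither the brm-1 nor the WT libraries against the combined mutant. Of the 156 members, 77 were higher in brm-1 ref6-1 than in ref6-1 with edgeR, where 5.39% of all genes tested were called higher. No member was called lower with edgeR, at an unadjusted p under 0.05 or with DESeq2, beside 6.56% of all genes tested. The median log2 difference was 0.88 over the members and 0.003 over all genes tested, and 147 members lay above 0. The choice kept out genes with a high ref6-1 mean, which favours a higher level in the combined mutant. The count was 66 to 73 without any library in turn, with 73 reached without replicate 3 of the combined mutant.

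**Figure D2:**
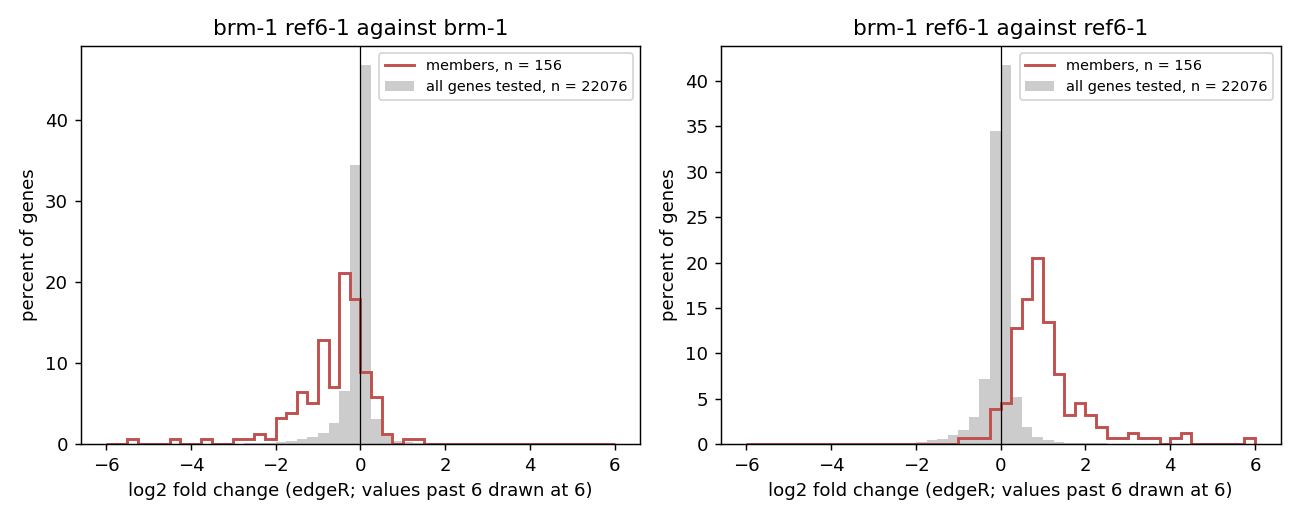
Log2 fold changes from edgeR (horizontal axis) of 156 member genes (red line) and of all 22076 genes tested (grey bars), as percent of genes per bin. Against brm-1 (left) the members have a median of -0.41, and against ref6-1 (right) of 0.88, while the medians of all genes are 0.006 and 0.003.

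Taking both comparisons, 67 members were higher than in ref6-1 and not called against brm-1, 21 were lower than in brm-1 and not called against ref6-1, 10 were called in both, and 58 in neither. The 10 were AT1G26540, AT1G55550, AT3G21080, AT3G44800, ABCG43, AT5G07760, BXL3, AT5G45840, HDA18 and AT5G61090. Both calls held under every alternative at this threshold for AT1G55550 and AT3G21080, and each of the other 8 lost at least 1 of its calls under some alternative. AT5G61090 was low in WT and ref6-1, and the limit this sets on its calls is given below. Against WT, which was chosen low and is not tested, the combined mutant libraries all lay above the highest WT library for 90 members, all below the lowest for 7 (WRKY62, WRKY67, AT3G21080, AOX1C, RGTA2, AT5G45840 and AT5G47330), and overlapped WT for 60. Over all loci of at least 2 CPM in either genotype, 28.2% lay all above WT and 21.6% all below.

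The level of a member in the combined mutant went with its level in ref6-1, as it did over all genes, in ranges that were set after earlier results were known. Of the 26 members whose ref6-1 mean was at most 0.5 times WT, 13 were lower than in brm-1, and the median ratio of the combined mutant to brm-1 was 0.336. Of the 35 members between 0.5 and 0.8 times WT, 12 were lower and the median ratio was 0.579. Of the 96 members above 0.8 times WT, 6 were lower and the median ratio was 0.844. Over all genes tested in the same ranges, 182 of 611 (29.8%), 279 of 1911 (14.6%) and 252 of 18286 (1.38%) were lower than in brm-1, with median ratios of 0.452, 0.801 and 1.02. The order of the ranges is thus not particular to the members, and the brm-1 libraries of the members were chosen high. The median ratio of brm-1 to WT was 2.37, 2.35 and 2.11 in the same ranges. Relative to WT, the combined mutant had median ratios of 0.873, 1.39 and 1.74. Its libraries lay all above WT for 6 of the 26, 15 of the 35 and 69 of the 96 members, beside 28.2% of all loci of at least 2 CPM in either genotype. These ratios share the WT and brm-1 libraries of the choice and are a description.

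**Figure D3:**
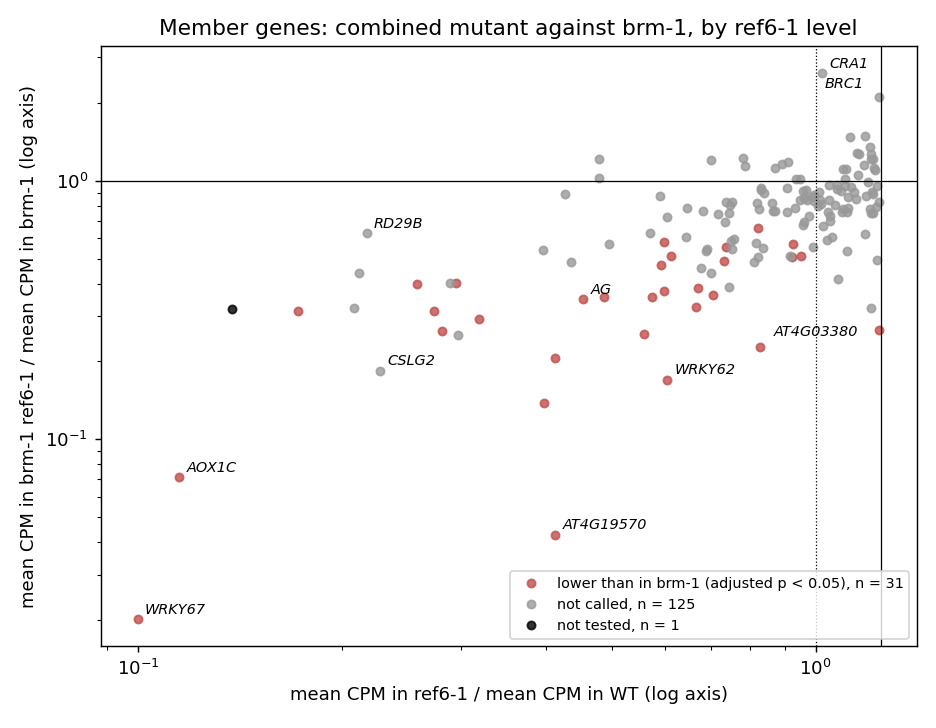
Each point is a member gene, with the ratio of its mean CPM in ref6-1 to WT on the horizontal axis and of brm-1 ref6-1 to brm-1 on the vertical axis, both log axes. Red marks the 31 genes lower than in brm-1 at an edgeR adjusted p under 0.05, and the solid vertical line at the right is the upper limit on ref6-1. Of the 26 genes at 0.5 or less in ref6-1, 13 are red, against 6 of the 96 above 0.8.

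The 6 members linked to seed storage, stress and lipids had a median ratio of brm-1 to WT of 8.64, beside 2.2 over all members. They were grouped after their values were seen, and several passed the filter on low counts only through the genotypes where they were high. The highest ratio of all, 65.8, belonged to CRA1. CRA1 (AT5G44120, chromosome 5, 17756238 to 17758336, TAIR10.1 annotation) encodes a 12S globulin, a major protein store of the seed. Its level was 0, 0.181 and 0.18 CPM in WT, 5.95, 16.0 and 1.75 CPM in brm-1, with 0, 0.186 and 0.182 in ref6-1 and 15.5, 31.4 and 14.8 CPM in the combined mutant. Every library carrying brm-1 was above every library without it, and the brm-1 libraries were far apart, at 70, 176 and 18 counts. CRA1 was higher in the combined mutant than in ref6-1 by 7.27 ± 1.05 on the log2 scale (SE, n = 3 per group, edgeR adjusted p = 0.00173). Against brm-1 the difference of 1.37 ± 0.57 was not called (edgeR adjusted p = 0.225, 0.0258 to 0.564 across the alternatives), and it was 2.39 without brm-1 replicate 2 (edgeR adjusted p = 0.0321).

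RD29B (AT5G52300, chromosome 5, 21237021 to 21239531), a hydrophilic stress protein gene that abscisic acid induces, had 1.6, 1.54 and 1.44 CPM in WT, 10.7, 9.75 and 8.15 in brm-1, then 0.72, 0.0929 and 0.182 in ref6-1 and 5.82, 6.52 and 5.61 in the combined mutant. The combined mutant lay between brm-1 and WT without overlap with either, and ref6-1 lay below WT. The difference from ref6-1 was 4.11 ± 0.37 (log2, SE, edgeR adjusted p = 3.68e-05), or 5.32 without ref6-1 replicate 1, and that from brm-1 was -0.68 ± 0.23 (edgeR adjusted p = 0.123).

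LTP4, a lipid transfer protein gene, had 0.674, 1.17 and 0.36 CPM in WT, 6.63, 8.29 and 6.11 in brm-1, with 0.18, 1.02 and 0.912 in ref6-1 and 2.72, 4.45 and 7.01 in the combined mutant. Libraries carrying brm-1 were again all above the others. Its difference from ref6-1 was 2.73 ± 0.49 (log2, SE, edgeR adjusted p = 0.00328). AT5G22490, annotated as a WSD1-like acyltransferase of the family that makes wax esters, averaged 0.323, 3.23, 0.155 and 3.31 CPM in WT, brm-1, ref6-1 and the combined mutant, and rose by 4.34 ± 0.73 over ref6-1 (edgeR adjusted p = 0.00222), a value of 8.18 without ref6-1 replicate 2, which held all the ref6-1 counts. AT4G36700, a cupin of the fold that storage globulins share, had 0.337, 0.271 and 0.629 CPM in WT, 1.02, 2.46 and 6.11 in brm-1, then 0.18, 0.186 and 0.365 in ref6-1 and 4.17, 1.98 and 2.24 in the combined mutant. It differed from ref6-1 by 3.46 ± 0.75 (edgeR adjusted p = 0.0102). Like CRA1, AT5G22490 and AT4G36700 passed the filter on low counts only through libraries carrying brm-1, so their calls support nothing.

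The promoters of 3 of these genes are shown because they hold short words known from seed and abscisic acid promoters. Each is the 250 bases before the annotated start, from the RefSeq TAIR10.1 genome and written 5′ to 3′ on the strand of the gene. Capitals mark CATGCA (the RY word bound by seed regulators), CACGTG (the G-box) and ACGTGTC or ACGTGGC (the core of the abscisic acid response element), searched on both strands. CRA1 lies on the minus strand with its promoter at chr5:17758337-17758586, RD29B on the plus strand at chr5:21236771-21237020 and AT4G36700 on the minus strand at chr4:17300368-17300617.
CRA1: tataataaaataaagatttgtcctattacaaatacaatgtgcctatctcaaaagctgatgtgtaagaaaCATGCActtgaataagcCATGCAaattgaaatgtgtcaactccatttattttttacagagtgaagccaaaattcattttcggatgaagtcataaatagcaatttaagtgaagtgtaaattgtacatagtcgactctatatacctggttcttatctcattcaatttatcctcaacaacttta
RD29B: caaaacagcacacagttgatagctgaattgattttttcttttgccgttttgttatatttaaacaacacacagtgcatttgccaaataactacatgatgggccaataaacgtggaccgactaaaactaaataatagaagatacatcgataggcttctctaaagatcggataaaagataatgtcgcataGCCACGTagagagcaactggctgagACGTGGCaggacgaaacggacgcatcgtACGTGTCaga
AT4G36700: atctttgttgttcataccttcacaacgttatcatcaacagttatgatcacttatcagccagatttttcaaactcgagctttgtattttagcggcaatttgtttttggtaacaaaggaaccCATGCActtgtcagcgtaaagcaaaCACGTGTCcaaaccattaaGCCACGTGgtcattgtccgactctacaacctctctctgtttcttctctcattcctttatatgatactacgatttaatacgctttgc
The CRA1 promoter held RY words starting at -181 and -164, counted from the annotated start, and no G-box. RD29B held words of the abscisic acid element at -63, -38 and -10. AT4G36700 held an RY word at -130 and G-boxes at -105 and -84, each overlapping a word of the abscisic acid element. An RY word was found in the promoters of 19 of the 157 members, or 12.1%, and in 7.94% of those of 21990 genes tested. A G-box was found in 8.28% of members and 7.23% of genes tested, and the abscisic acid words in 5.73% and 7.15%. A match is a description of the sequence and does not show a bound site.

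Some seed markers were higher in the same libraries. The list of 13 seed storage and oil body genes, which includes CRA1, summed to 7.55 to 7.95 CPM in WT and 7.83 to 9.01 CPM in ref6-1. It summed to 19.97, 44.7 and 13.8 CPM in brm-1 and 45.4, 118.9 and 43.2 CPM in the combined mutant, with replicate 2 highest in both. CRC, another globulin gene and no member, was counted 12, 134 and 6 times in brm-1 and 123, 475 and 123 times in the combined mutant. In WT, 5 genes of the list (CRC, SESA1, SESA2, SESA3 and OLEO2) were at 0, and OLEO4 made up most of the sum, with a mean of 6.73 CPM. Of the 13, 6 had every brm-1 library above every WT library and none had every one below, while CRB and SESA3 had no count in brm-1. Of 11 late embryogenesis genes, 1 had its brm-1 libraries all above WT and 1, EM6, all below. EM6 had means of 1.11 CPM in WT and 0.356 CPM in brm-1. Among 21119 loci of at least 2 CPM in WT or brm-1, 4219 had every brm-1 library above WT and 3561 every one below. Most genes of both lists had means under 2 CPM in WT and in brm-1, so these loci are only a rough comparison. The part of seed RNA in these results was not tested.

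Genes of chromatin formed a small group of 5 members, including DNA repair. BRD2 (AT1G76380, chromosome 1, 28651069 to 28654660) encodes a bromodomain subunit of BRM-containing SWI/SNF complexes. Its level was 48.6, 41.6 and 46.1 CPM in WT, 87.3, 85.9 and 87.5 in brm-1, with 45.8, 39.4 and 44.1 in ref6-1 and 86.7, 91.8 and 86.8 in the combined mutant. Libraries carrying brm-1 formed a high set and the others a low set, and no library lay between 48.6 and 85.9 CPM. The difference of the combined mutant from ref6-1 was 1.04 ± 0.06 (log2, SE, edgeR adjusted p = 2.47e-06), and that from brm-1 was 0.02 ± 0.05 (edgeR adjusted p = 0.899). Of a list of 15 SWI/SNF subunit genes, 3 were higher and 2 lower than in ref6-1, BRM itself included, with a median log2 difference of 0.0. Over all genes tested, 5.39% were higher and 6.56% lower.

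HDA18, a histone deacetylase gene known for a role in root epidermal patterning, had 4.97, 3.88 and 4.32 CPM in WT, 11.9, 12.8 and 10.5 in brm-1, then 1.98, 3.53 and 2.55 in ref6-1 and 6.5, 5.14 and 6.26 in the combined mutant. The 4 genotypes did not overlap. Its log2 difference from brm-1 was -0.98 ± 0.18 (edgeR adjusted p = 0.0104), which was not called without replicate 2 of the combined mutant (edgeR adjusted p = 0.0558, 0.000834 to 0.0558 across the alternatives). It was higher than in ref6-1 by 1.15 ± 0.21 (edgeR adjusted p = 0.00359). Its neighbour AT5G61090, annotated as a ribonuclease H-like transferase and 264 bases away on the same strand, averaged 0.68, 4.88, 0.456 and 1.88 CPM in WT, brm-1, ref6-1 and the combined mutant. At these levels AT5G61090 probably passed the filter on low counts only through libraries carrying brm-1, so the calls of AT5G61090 support nothing. Its difference from brm-1 of -1.37 ± 0.30 (edgeR adjusted p = 0.022, 0.0121 to 0.0941 across the alternatives) was not called without brm-1 replicate 1 (0.0671) or 3 (0.0741) or without replicate 1 (0.0881) or 2 (0.0941) of the combined mutant, and its difference from ref6-1 was 2.02 ± 0.41 (edgeR adjusted p = 0.00627). AT1G26540, with an Agenet domain of the kind that reads histone tails, averaged 9.43, 19.4, 6.95 and 10.8 CPM and differed from brm-1 by -0.86 ± 0.15 on the log2 scale (edgeR adjusted p = 0.00852). CRH1, a MORC-family ATPase gene linked to gene silencing and defence, averaged 12.8, 24.4, 12.9 and 19.5 CPM and was 0.59 ± 0.12 above ref6-1 (log2, edgeR adjusted p = 0.00601).

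Transcription regulators were the largest group by function, with 22 members, a median ratio of brm-1 to WT of 2.21, and 11 members called higher in the combined mutant than in ref6-1. Over all members the median was 2.2 and 77 of 156 were called higher, beside 5.39% of all genes tested, so these values do not set the regulators apart. The groups were formed after the values were seen, and their counts only describe. MYB31, a MYB factor gene, had 24.4, 28.9 and 32.5 CPM in WT, 56.9, 54.4 and 64.0 in brm-1, with 30.4, 28.8 and 27.6 in ref6-1 and 52.9, 52.2 and 54.1 in the combined mutant. WRKY23, a WRKY factor gene that auxin induces in roots, had 15.1, 22.1 and 19.5 CPM in WT, 46.0, 50.6 and 48.4 in brm-1, then 18.6, 21.6 and 17.5 in ref6-1 and 40.7, 39.3 and 38.1 in the combined mutant. In both genes, libraries carrying brm-1 did not overlap the others. MYB31 was 0.88 ± 0.09 above ref6-1 (log2, edgeR adjusted p = 8.76e-05), and WRKY23 was 1.03 ± 0.11 above it (edgeR adjusted p = 0.000165). GRF8, a growth-regulating factor gene, was 1.51 ± 0.17 above ref6-1 (edgeR adjusted p = 0.000175), at 3.88, 10.4, 3.26 and 9.29 CPM in WT, brm-1, ref6-1 and the combined mutant. SHI, a zinc-finger gene of gynoecium and leaf development, was 0.97 ± 0.13 above ref6-1 (edgeR adjusted p = 0.000529), at 11.7 against 22.9 CPM.

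Several regulators of organ boundaries, branching and flowers were among them. BOP1, a BTB and ankyrin protein gene active at the base of leaves, had 8.52, 2.8 and 7.37 CPM in WT, 15.2, 15.4 and 10.5 in brm-1, with 10.1, 6.6 and 4.83 in ref6-1 and 18.6, 18.4 and 15.4 in the combined mutant. Every combined mutant library was above every WT and ref6-1 library. Its difference from ref6-1 of 1.28 ± 0.33 was called (edgeR adjusted p = 0.0264, 0.00235 to 0.0899 across the alternatives), but not without ref6-1 replicate 2 (0.0899) or 3 (0.0878) or without replicate 1 (0.0788) or 2 (0.0797) of the combined mutant. BRC1, a TCP factor gene that holds back axillary buds, had 0.759, 0.903 and 1.35 CPM in WT, 2.55, 2.19 and 4.27 in brm-1, then 1.44, 0.557 and 1.73 in ref6-1 and 3.88, 7.71 and 7.38 in the combined mutant. The combined mutant was above WT and ref6-1 in every library and overlapped brm-1. BRC1 rose over ref6-1 by 2.33 ± 0.41 (log2, edgeR adjusted p = 0.00267), and its difference from brm-1 of 1.07 ± 0.36 was not called (edgeR adjusted p = 0.123).

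CUC3, a NAC factor gene of organ boundaries, had 1.69, 1.63 and 2.52 CPM in WT, 3.99, 4.92 and 4.07 in brm-1, with 3.96, 1.58 and 1.64 in ref6-1 and 5.04, 3.75 and 3.64 in the combined mutant. The ref6-1 libraries were split, with replicate 1 at the level of brm-1. The difference from ref6-1 was 0.79 ± 0.33 (edgeR adjusted p = 0.149, 0.0119 to 0.38 across the alternatives), and it was called at 1.35 without ref6-1 replicate 1 (0.0119). PRE5, a helix-loop-helix gene of the group that promotes cell elongation, averaged 1.89, 5.6, 1.22 and 4.4 CPM in WT, brm-1, ref6-1 and the combined mutant, and was 1.84 ± 0.42 above ref6-1 (edgeR adjusted p = 0.0126). TCL1, a small MYB gene that represses trichomes, averaged 1.69, 5.36, 1.68 and 2.98 CPM, and neither difference was called (edgeR adjusted p = 0.219 against brm-1 and 0.238 against ref6-1). Of 14 tested genes in the list of meristem and boundary regulators, 3 were higher and 2 lower than in ref6-1, with a median of 0.16. The shares over all genes tested were 5.39% and 6.56%.

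The MADS-box genes FUL and AG were each called in 1 of the comparisons. FUL, which acts in flowering and fruit growth, had 4.3, 6.14 and 4.77 CPM in WT, 8.24, 11.3 and 10.8 in brm-1, then 4.5, 5.11 and 6.75 in ref6-1 and 8.15, 9.39 and 11.6 in the combined mutant. Libraries carrying brm-1 were all above the others. FUL was 0.83 ± 0.21 above ref6-1 (edgeR adjusted p = 0.0212, 0.00639 to 0.0763 across the alternatives), a call lost without ref6-1 replicate 1 (0.0695) or 2 (0.0738) or replicate 2 (0.0526) or 3 (0.0763) of the combined mutant. AG, the regulator of stamen and carpel identity, had 1.69, 2.89 and 3.06 CPM in WT, 5.27, 6.38 and 6.01 in brm-1, with 0.991, 0.836 and 1.64 in ref6-1 and 2.62, 1.58 and 1.96 in the combined mutant. The combined mutant overlapped WT and lay below every brm-1 library. AG was lower than in brm-1 by a log2 value of -1.52 ± 0.29 (edgeR adjusted p = 0.0115), which was not called without replicate 2 of the combined mutant (0.0568, 0.000994 to 0.0568 across the alternatives). Of 11 tested floral organ MADS genes, 3 were higher and 2 lower than in brm-1, with a median log2 difference of 0.68. Over all genes tested the shares were 1.12% and 3.27%.

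**Figure D4:**
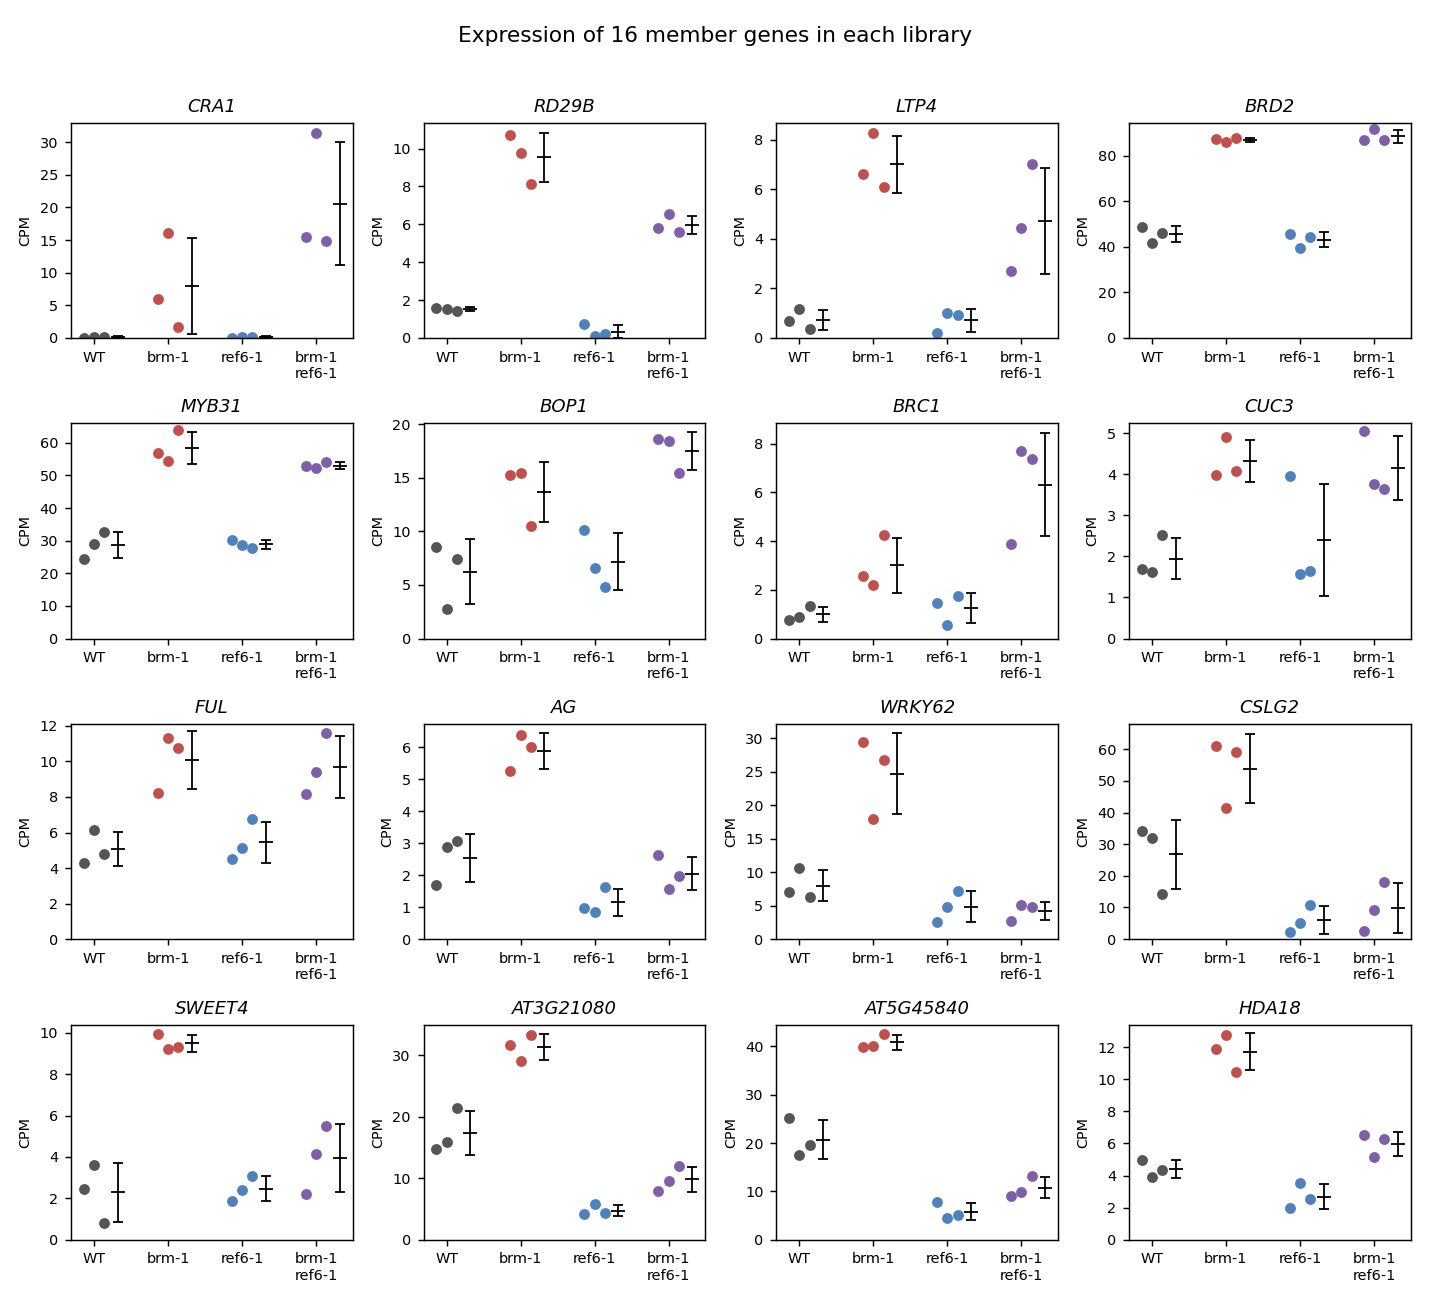
CPM (vertical axes, each from 0) of 16 member genes in the 12 libraries, by genotype. Points are libraries in the order of replicates 1 to 3, and the black marks are the mean with SD, n = 3. BRD2 and MYB31 have the combined mutant near brm-1, while WRKY62 has it near ref6-1. In CSLG2 the combined mutant overlaps WT and ref6-1, and in AT5G45840 and HDA18 it lies between the single mutants.

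Members that were lower in the combined mutant than in brm-1 included WRKY genes and genes of enzymes and receptors. WRKY62 (AT5G01900, chromosome 5, 350925 to 352095), a WRKY factor gene of the salicylate response, had 7.08, 10.6 and 6.29 CPM in WT, 29.4, 17.9 and 26.8 in brm-1, then 2.52, 4.83 and 7.11 in ref6-1 and 2.72, 5.04 and 4.86 in the combined mutant. The combined mutant overlapped ref6-1 and lay below every WT and brm-1 library. Its difference from brm-1 was -2.56 ± 0.35 (log2, SE, edgeR adjusted p = 0.00239) and from ref6-1 -0.20 ± 0.40 (edgeR adjusted p = 0.803). WRKY67, of the same family, was counted 104 times over the brm-1 libraries and 2 times over the combined mutant, or 49.0 times as often after scaling by the library totals (exact 95% interval from 13.2 to 410 for counting error alone). The difference was called (edgeR adjusted p = 0.00245). The brm-1 counts were chosen high, so part of this difference is set by the choice. The interval was computed only because the combined mutant held so few counts, so the ratio and its interval only describe. WRKY67 had 1.01, 1.08 and 1.53 CPM in WT and 0.18, 0 and 0.182 CPM in ref6-1. The list of 10 salicylate defence genes, none a member, summed to 562 to 636 CPM in WT, 490 to 610 in brm-1, 396 to 563 in ref6-1 and 354 to 422 in the combined mutant, and its part in these results was not tested.

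AT5G45840, annotated as a leucine-rich repeat receptor kinase, had 25.1, 17.44 and 19.6 CPM in WT, 39.9, 40.1 and 42.6 in brm-1, with 7.83, 4.46 and 5.2 in ref6-1 and 9.12, 9.88 and 13.3 in the combined mutant. The combined mutant lay below WT and above ref6-1 in every library. It was lower than brm-1 by -1.93 ± 0.18 (log2, edgeR adjusted p = 0.000265). Its rise over ref6-1 of 0.88 ± 0.21 (edgeR adjusted p = 0.0192, 0.00129 to 0.0747 across the alternatives) was lost with only the groups compared (0.0505) and without ref6-1 replicate 2 (0.0747) or 3 (0.0723) or replicate 3 of the combined mutant (0.0669). AT3G21080, annotated as an ABC transporter-like protein, had 14.8, 15.9 and 21.4 CPM in WT, 31.8, 29.1 and 33.4 in brm-1, then 4.14, 5.76 and 4.38 in ref6-1 and 7.95, 9.59 and 11.96 in the combined mutant. It had the same order of genotypes, with a difference of -1.68 ± 0.16 from brm-1 (edgeR adjusted p = 0.000265) and of 1.05 ± 0.20 from ref6-1 (edgeR adjusted p = 0.00425).

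AT5G47330, an alpha/beta hydrolase gene, had 4.89, 6.78 and 4.32 CPM in WT, 12.4, 14.2 and 10.6 in brm-1, with 1.26, 2.79 and 2.55 in ref6-1 and 2.62, 1.38 and 3.64 in the combined mutant. It was lower than in brm-1 by -2.28 ± 0.31 (log2, edgeR adjusted p = 0.00161) and overlapped ref6-1. AOX1C, an alternative oxidase gene of the mitochondrion, had 2.19, 2.35 and 1.8 CPM in WT, 5.18, 3.1 and 3.49 in brm-1, then 0.18, 0.186 and 0.365 in ref6-1 and 0, 0 and 0.841 in the combined mutant. Its difference from brm-1 was -3.73 ± 0.65 (edgeR adjusted p = 0.00764), and -8.43 without replicate 3 of the combined mutant, which held all its counts there. The kinase gene AT4G17660 averaged 1.36, 5.21, 1.13 and 1.18 CPM in WT, brm-1, ref6-1 and the combined mutant, a difference of -2.13 ± 0.35 from brm-1 (edgeR adjusted p = 0.00508). AT1G55550, annotated as a P-loop nucleoside triphosphate hydrolase, averaged 10.6, 20, 6.36 and 11.6 CPM and was called in both comparisons, at -0.79 ± 0.12 from brm-1 (edgeR adjusted p = 0.00258) and 0.87 ± 0.13 from ref6-1 (edgeR adjusted p = 0.000976). RGTA2, for a subunit of the enzyme that attaches lipid anchors to RAB proteins, averaged 1.41, 3.53, 0.789 and 0.898 CPM and differed from brm-1 by -1.97 ± 0.30 (edgeR adjusted p = 0.00316).

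Some lower values were less certain. AT4G19570, a DnaJ-domain chaperone gene, averaged 0.447, 2.92, 0.185 and 0.125 CPM in the 4 genotypes, and its difference from brm-1 of -4.40 ± 0.81 (edgeR adjusted p = 0.00979) was -8.0 without replicate 3 of the combined mutant and was not called without replicate 2 (0.0505, 0.000669 to 0.0505 across the alternatives). This gene passed the filter on low counts only through brm-1, where it was chosen high. AT4G03380, an uncharacterized protein gene, had 20.6, 10.8 and 8.34 CPM in brm-1 and 3.1, 2.96 and 4.39 in the combined mutant. Its difference of -1.93 ± 0.46 (edgeR adjusted p = 0.0424, 0.000734 to 0.149 across the alternatives) was not called without brm-1 replicate 1 (0.131) or 2 (0.0614) or any combined mutant library (0.0668 to 0.149). It was also not called with no filter on low counts (0.053) or with the replicate block (0.0717). UNE17, a subtilisin-like protease gene, averaged 0.655, 2.19, 0.789 and 0.702 CPM, and AT2G31940, an oxidoreductase gene, 1.09, 2.15, 1.22 and 1.16 CPM. Neither was called against brm-1 (edgeR adjusted p = 0.139 and 0.214) or against ref6-1 (0.911 and 0.933).

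Among 7 members linked to the cell wall, 3 were lower than in brm-1 and 4 higher than in ref6-1, beside 31 and 77 of the 156 members and 3.27% and 5.39% of all genes tested. Their median ratio of the combined mutant to brm-1 was 0.473, beside 0.757 over all members. Their median ratio of ref6-1 to WT was also low, at 0.479 beside 0.907 over all members. Over all genes tested, a low ref6-1 level went with a low ratio to brm-1. The group was formed after its values were seen, so these values only describe. CSLG2, a cellulose synthase-like gene, had 34.1, 31.98 and 14.2 CPM in WT, 61.1, 41.3 and 59.3 in brm-1, with 2.34, 5.11 and 10.8 in ref6-1 and 2.42, 9.19 and 18.1 in the combined mutant. The ref6-1 libraries lay below all WT libraries, and the combined mutant overlapped both. Its difference from brm-1 of -2.44 ± 0.59 was not called (edgeR adjusted p = 0.0516, 0.0221 to 0.156 across the alternatives), but it was called with DESeq2 (0.0221), with column totals (0.0435) and without replicate 3 of the combined mutant (0.0298). GH9A3, an endoglucanase gene, fell by 1.78 ± 0.28 (edgeR adjusted p = 0.00453), from 6.84 CPM in brm-1 to 2.0 CPM. EXPA16, an expansin gene whose family loosens walls, fell by 1.08 ± 0.19 (edgeR adjusted p = 0.00758), from 12.7 to 5.99 CPM. In the other comparison, AT3G47040, annotated as a glycosyl hydrolase, had 9.53 CPM in ref6-1 and 27.0 CPM in the combined mutant, a rise of 1.5 ± 0.16 (edgeR adjusted p = 0.000121). Against brm-1 its difference of 0.18 was not called (edgeR adjusted p = 0.563). AT2G36710, annotated as pectin lyase-like, averaged 1.21, 4.24, 0.58 and 5.15 CPM in the 4 genotypes and rose over ref6-1 by 3.13 ± 0.45 (edgeR adjusted p = 0.000817).

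Transporters counted 16 members, of which 5 were lower than in brm-1 and 10 higher than in ref6-1, beside 31 and 77 of the 156 members and 3.27% and 5.39% of all genes tested. SWEET4, a sugar transporter gene, had 2.44, 3.61 and 0.809 CPM in WT, 9.94, 9.2 and 9.31 in brm-1, then 1.89, 2.42 and 3.1 in ref6-1 and 2.23, 4.15 and 5.51 in the combined mutant. The brm-1 libraries were close together and above all the others, and the combined mutant overlapped WT. The difference from brm-1 of -1.26 ± 0.37 was not called (edgeR adjusted p = 0.0754, 0.0331 to 0.218 across the alternatives), but was with DESeq2 (0.0489) and with only the groups compared (0.0331). ENT6, a nucleoside transporter gene, fell by 1.04 ± 0.16 (edgeR adjusted p = 0.00401), from 15.6 CPM in brm-1 to 7.62 CPM in the combined mutant. CAT5, a cationic amino acid transporter gene, averaged 8.89, 17.2, 8.22 and 9.8 CPM in the 4 genotypes, and its difference from brm-1 of -0.82 ± 0.16 (edgeR adjusted p = 0.0125, 0.0015 to 0.0622 across the alternatives) was not called without replicate 2 of the combined mutant (0.0622).

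SULTR3;2, of the sulfate transporter family, averaged 12.5, 24.7, 14.1 and 36.5 CPM in WT, brm-1, ref6-1 and the combined mutant. All combined mutant libraries (39.5, 39.4 and 30.6 CPM) were above all brm-1 libraries (28.1, 26.3 and 19.6 CPM). The gene rose over ref6-1 by 1.37 ± 0.21 (log2, edgeR adjusted p = 0.00154), and its difference from brm-1 of 0.55 ± 0.19 was not called (edgeR adjusted p = 0.143, 0.046 to 0.345 across the alternatives), but was with the replicate block (0.56, adjusted p = 0.046). UMAMIT6, of a family of amino acid exporters, was 1.01 ± 0.11 above ref6-1 (edgeR adjusted p = 0.000165), at 11.8 against 23.8 CPM. PTR5, a peptide transporter gene, averaged 12.4, 28.9, 12.3 and 25.01 CPM in the 4 genotypes and was 1.03 ± 0.12 above ref6-1 (edgeR adjusted p = 0.000224). OPT6, an oligopeptide transporter gene, averaged 35.0, 63.2, 41.7 and 62.4 CPM and was 0.58 ± 0.11 above ref6-1 (edgeR adjusted p = 0.00458).

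Several other members were among the highest in brm-1 or had the smallest adjusted p against ref6-1. AT1G62290, a saposin-like aspartyl protease gene, had 23.5, 23.1 and 22.0 CPM in WT, 56.1, 58.2 and 57.2 in brm-1, with 29.6, 25.1 and 21.5 in ref6-1 and 64.2, 65.5 and 60.7 in the combined mutant. Every combined mutant library was above every brm-1 library, but the difference of 0.14 ± 0.07 was not called (edgeR adjusted p = 0.295), while that from ref6-1 was 1.32 ± 0.08 (edgeR adjusted p = 3.65e-06). AT1G09480, annotated as a Rossmann-fold dehydrogenase, averaged 12.1, 26.7, 10.03 and 25 CPM and rose over ref6-1 by 1.32 ± 0.12 (edgeR adjusted p = 5.55e-05). AT3G23480, a cyclopropane fatty acid synthase gene, averaged 30.0, 55.0, 32.8 and 50.0 CPM and rose by 0.61 ± 0.05 (edgeR adjusted p = 2.79e-05). CYS2, a phytocystatin gene whose proteins inhibit cysteine proteases, averaged 4.32, 9.21, 3.93 and 10.9 CPM and rose by 1.47 ± 0.15 (edgeR adjusted p = 0.000113). AT3G12915, an elongation factor G-like gene, averaged 22.2, 54.6, 24.8 and 47.4 CPM and rose by 0.93 ± 0.16 (edgeR adjusted p = 0.0032). PP2-A5, a phloem lectin gene, averaged 28.0, 52.7, 30.6 and 41.0 CPM, and its difference from ref6-1 of 0.42 was not called (edgeR adjusted p = 0.325).

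Genes with the larger ratios of brm-1 to WT included several with little known function. AT1G77960, annotated as a ROX1-like repressor, averaged 2.04, 12.7, 1.9 and 9.92 CPM and was 2.38 ± 0.28 above ref6-1 (log2, edgeR adjusted p = 0.000246). The F-box gene AT5G60610 averaged 1.93, 8.05, 1.31 and 6.14 CPM and was 2.22 ± 0.32 above ref6-1 (edgeR adjusted p = 0.000845). AT2G38920, with an SPX domain of the kind that senses phosphate status, averaged 2.48, 7.96, 2.59 and 7.64 CPM and was 1.56 ± 0.19 above ref6-1 (edgeR adjusted p = 0.000282). TIM44-1, of the mitochondrial import machinery, averaged 2.04, 8.0, 1.43 and 3.53 CPM, and neither difference was called (edgeR adjusted p = 0.0987 against brm-1 and 0.0879 against ref6-1), although the latter was without ref6-1 replicate 3 (0.039) or replicate 3 of the combined mutant (0.0402, 0.039 to 0.286 across the alternatives). The acyltransferase gene AT2G25150, by contrast, had a ratio of brm-1 to WT near the median of 2.2 over all members. It averaged 2.75, 6.17, 3.24 and 9.19 CPM, and its rise of 1.5 over ref6-1 (edgeR adjusted p = 0.0123) was lost without ref6-1 replicate 2 (0.051, 0.000591 to 0.051 across the alternatives). Among hormone genes, the gibberellin synthesis gene GA20OX1 was lower than in brm-1 by a log2 value of -0.97 ± 0.25 (edgeR adjusted p = 0.0489, 0.0358 to 0.178 across the alternatives), at 6.82 against 3.48 CPM. That call was not stable, being lost without brm-1 replicate 1 (0.178) or 2 (0.102) and without replicate 1 (0.161) or 2 (0.165) of the combined mutant. It was also lost with column totals (0.0505), no filter on low counts (0.0525), only the groups compared (0.0801) and the replicate block (0.0621).

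The same limits on brm-1 without the limit on ref6-1 were met by 309 loci, of which the other 152 had a ref6-1 mean above 125% of WT. In those 152 the median ratio of the combined mutant to brm-1 was 1.02, with quartiles of 0.838 and 1.28, and the median ratio to WT was 2.69. In the 157 members the ratio to brm-1 was 0.757, with quartiles of 0.508 and 0.91, and the ratio to WT was 1.62. Both sets were chosen for high brm-1 libraries, and their difference was not tested, since the level in ref6-1 that divides them and the combined mutant are not independent of the choice.

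The members were spread over the genome. They numbered 37, 24, 31, 27 and 38 on chromosomes 1 to 5, which is 0.484 to 0.619% of the annotated loci of each. By type, 153 were protein-coding, 3 were non-coding RNA genes of either class and 1 was a transcribed pseudogene. An annotated gene on the opposite strand overlapped 27 members, or 17.2%, beside 27.7% of genes tested. The strand setting of the counting is not stated in the sources used here, so values of members with an overlapping gene are uncertain, among them AT3G23480, OPT6, AT1G77960, SULTR3;2, CYS2, AT5G60610, AT3G12915, TIM44-1 and ENT6. Of the 127 members with no overlapping gene, 28 were lower than in brm-1 and 61 higher than in ref6-1.

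Neighbouring members formed 5 pairs with no locus between them. The germin-like cupins AT5G39110, AT5G39120 and AT5G39130 lie in tandem between 15657697 and 15666472 on chromosome 5, with brm-1 means of 9.51, 9.93 and 4.75 CPM, WT means of 4.5, 4.01 and 2.59 CPM, and combined mutant means of 6.57, 5.41 and 2.3 CPM. None of the 3 was called in either comparison with edgeR (adjusted p from 0.0781 to 0.192 against ref6-1), but AT5G39110 was called higher than in ref6-1 without ref6-1 replicate 2 (1.48, adjusted p = 0.018) and AT5G39130 without ref6-1 replicate 3 (1.73, adjusted p = 0.0208). Their reads may be shared among near-identical copies. AT5G52930 and AT5G52940, which share a DUF295 domain and lie 241 bases apart on the same strand, fell together in the combined mutant, by 1.5 (edgeR adjusted p = 0.00308) and by 1.49 (edgeR adjusted p = 0.0156). The second of these calls was lost without brm-1 replicate 2 (0.0516) and without replicate 1 (0.0593) or 2 (0.0619) of the combined mutant (0.00228 to 0.0619 across the alternatives).

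The DNA words CTCTGTTT, CTCTGTTC, CTCTGCTT and CTCTGCTC, which REF6 is known to recognize, occurred in the 250-base promoters of 6.37% of members and 5.35% of genes tested, on either strand. Among the 31 members lower than in brm-1 the share was 4 promoters, or 12.9%. Over the whole transcribed span, members held 0.606 words per kilobase and the genes tested 0.44, while 59.2% and 61.2% held at least 1. Members with ref6-1 at most 0.5 times WT held 0.653 words per kilobase and the other members 0.596. The telobox AAACCCTAA, a word linked to Polycomb recruitment, was found in 1.91% of member promoters and 2.05% of those tested. In the 31 members lower than in brm-1, the RY word was in 1 promoter (3.23%). The G-box, the abscisic acid words and the telobox were in 0 of the 31. These are descriptions of sequence, with no test.

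Lists of genes by pathway or cell type held 8 of the 157 members: CRA1, LTP4, RD29B, FUL, AG, CUC3, BOP1 and BRD2. Of the 13 seed storage and oil body genes, 6 were tested, 5 of them higher than in ref6-1 and none lower, with a median of 6.79. Apart from OLEO4, which was well counted in every genotype, they passed the filter only through the groups where they were high, so this count supports nothing. Of 6 lipid transfer genes, 4 were higher than in ref6-1, beside 5.39% of all genes tested, with a median of 0.24. LTP4 had a value of 2.73. Of 24 tested genes of the abscisic acid response, 2 were higher and 2 lower than in ref6-1, beside 5.39% and 6.56% of all genes tested, with a median of 0.02. Of the 25 in that list, 13 had every brm-1 library below every WT library, beside 16.9% of all loci of at least 2 CPM, and RD29B was the 1 with every one above. Tapetum and anther markers summed to 0.63 to 2.88 CPM in all libraries.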

How the data were processed

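RNA of 12 seedling libraries was sequenced as paired-end reads from TruSeq libraries, per the labels' protocols. The deposited table holds raw counts per locus. The authors' alignment used TopHat2 and TAIR10, per the submitters' processing notes. The counting tool, its strand setting and treatment of duplicates are not stated in the sources used here. The largest count was 6707, and the value 2 (7320 times) was more frequent than 1 (4554 times), so counts may cover both mates of a pair and intervals based on counts would then be too narrow. Intervals cover counting error only.

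The members and lists were chosen with earlier results of these data known. CPM in the text is a count over its column total. Log2 differences, standard errors and adjusted p come from edgeR 4.0.16 in R 4.3.3 (TMM normalization, filterByExpr, robust quasi-likelihood F test, two-sided, 12 libraries with 1 mean per genotype, Benjamini-Hochberg over 22076 genes, threshold 0.05). The fit was tested on simulated data. Loci were matched to the TAIR10.1 annotation by identifier (28932 of 29420). Named are the members in 20 fixed lists, the 12 largest ratios of brm-1 to WT with at least 5 CPM in brm-1, the 8 highest in brm-1, the 6 smallest adjusted p in each direction of each comparison, and 2 loci on each side of each limit. Groups by function were formed after the values were seen. HDA18, AT5G61090, AT1G26540, RGTA2, CAT5, PTR5, AT2G36710, CRH1, WRKY23, GRF8, SHI, AOX1C, AT5G22490, AT4G36700, AT3G47040, GH9A3, EXPA16, ENT6, UMAMIT6, GA20OX1, CRC, the tandem cupins and the DUF295 pair were named after their values were seen. Alternatives were DESeq2 1.42.0, other scalings, no filter, only the groups compared, a threshold of 0.01, a replicate block, each library left out, other limits of the choice and, added after seeing the data, members with no overlapping gene.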

Additional observations from a re-analysis of the deposited data

How the results depend on the processing

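The number of members rested on the fold limit. It was 347 at 1.5 times WT and 78 at 2.2 times WT, 151 to 192 with each library left out, and 151 with TMM-scaled CPM. Of the 157, 148 were kept with TMM-scaled CPM but as few as 123 without WT replicate 3 and 127 without WT replicate 2, and at most 147 with any library left out. Members higher than in brm-1 numbered 0, except 2 with the replicate block (CRA1 and SULTR3;2), and 0 to 1 with each library left out (CRA1 without brm-1 replicate 2). Members lower than in brm-1 numbered 16 at an adjusted p under 0.01, 15 to 29 with each library left out, 28 among the 127 members with no overlapping gene, and 29 to 35 under the other settings. Members higher than in ref6-1 numbered 57 to 78, and members lower than in ref6-1 were 0 in all settings. Of the 31 calls against brm-1, 14 held under every setting at the threshold of 0.05, and of the 77 calls against ref6-1, 59 did. No value of a called member changed sign. Replicate numbers were not used to pair the libraries in the main fit. Same-numbered libraries of different genotypes correlated between -0.189 and 0.291 in their deviations from the genotype mean. Libraries of unlike number correlated between -0.305 and 0.256. Whether replicate numbers pair the libraries was not tested. With the replicate block the counts were 31 lower than in brm-1 and 78 higher than in ref6-1. For the calls that were lost the cause was not tested. At a few counts per library, as for WRKY67 and AOX1C in the combined mutant, depth limits the size of a fold.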
